A study of Mus musculus with 10 samples.

Results

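Rlbp1 and 8 genes that handle retinoids, the family of vitamin A compounds, were followed in dorsal root ganglia, which hold the cell bodies of sensory neurons. The 9 genes are Rlbp1, Rdh10, Aldh1a1, Aldh1a2, Aldh1a3, Crabp1, Crabp2, Rara and Rarb. They were taken by symbol, 1 row per Ensembl ID, from 40481 genes in the count table, of which 18401 had enough reads to be tested, and all 9 were among these. The genes were chosen with the results of this same contrast known, Rlbp1 for its lower level after the drug. Their differences between the groups are therefore given as a description, and nothing is read from how many of them passed the test.

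The study sequenced total RNA from ganglia of C57BL/6 mice. One group of 5 libraries came from mice given oxaliplatin at 10 mg/kg, with the design text giving 8 weeks of treatment, and the other group of 5 came from mice given vehicle. Oxaliplatin is a platinum drug for colorectal cancer that damages sensory nerves. The sources used here give neither the dosing schedule nor the age of the animals, and they do not say that each library came from a separate animal. The p-values then measure only how far these libraries spread, which may be technical.

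Cells take up retinol, oxidise it to retinaldehyde and then to retinoic acid, which binds nuclear receptors that switch genes on at retinoic acid response elements. In the eye, the Rlbp1 protein (CRALBP) carries cis-retinoids in retinal pigment epithelium and Muller glia during the visual cycle. Retinoic acid promotes neurite outgrowth from cultured sensory neurons, and Aldh1a2 is known as a gene of the meninges.

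Each library held 52963470 to 60984426 counted reads. Levels are given as CPM, counts scaled to library size and composition, and differences as log2 fold changes, oxaliplatin minus vehicle, with their standard error (SE). Over all 18401 tested genes, 234 were higher after oxaliplatin (1.27%) and 142 lower (0.772%) in edgeR's quasi-likelihood test at a Benjamini-Hochberg adjusted p below 0.05, or 303 and 99 without a composition factor. The summed level of 10 sensory neuron markers ran from 20661 to 26820 CPM, that of 10 Schwann cell myelin markers from 7812 to 11594 CPM and that of 10 satellite glia markers from 1100 to 1462 CPM, and none of these markers was at 0 in all libraries of a group, so the main cell types of the labelled tissue were present. The sensory neuron sum was below every vehicle library in 4 of 5 oxaliplatin libraries. Nuclear-retained RNAs summed to 8805 to 11259 CPM after oxaliplatin and 7714 to 8674 CPM after vehicle, higher in 5 of 5 oxaliplatin libraries. Astrocyte markers summed to 473 to 729 against 414 to 501 CPM, with 4 oxaliplatin libraries above every vehicle library. Aldoc alone gave 423 to 688 of these CPM after oxaliplatin and 372 to 468 after vehicle. Gfap of the same list had a log2 fold change of -0.01 ± 0.61 (edgeR adjusted p = 0.996). Fibroblast (1000.3 to 1272 against 841 to 1107 CPM) and oligodendrocyte lineage markers (39.5 to 59.1 against 33.7 to 45.1 CPM) had 3 above. These 2 lists share Pdgfra. In the oligodendrocyte lineage list 5 of 8 genes could be tested, and Olig1, Olig2 and Opalin had at most 17, 3 and 14 counts in any library. The part of these lists in the differences was not tested. Oxaliplatin replicate 1 stood apart in fat cell markers, with a sum of 1158 CPM beside 27.2 to 78.3 CPM in all others. It also stood apart in skeletal muscle markers, with 723 CPM beside 9.61 to 24.2 CPM in the remaining oxaliplatin libraries and 96.8 to 479 CPM after vehicle. These remaining 4 oxaliplatin libraries lay below every vehicle library in skeletal muscle markers.

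Of the 9 genes, Aldh1a1 was past the threshold as higher (1.27% of all tested genes were) and Rlbp1 as lower (0.772% were), and the other 7 were not past it. For Aldh1a1 every oxaliplatin library also lay above every vehicle library, as for 2.25% of all tested genes, and for Rlbp1 every one lay below, as for 1.77%. The log2 fold change was above 0 for 5 genes and below 0 for 4, with a median of 0.22 beside 0.01 over all tested genes.

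**Figure D1:**
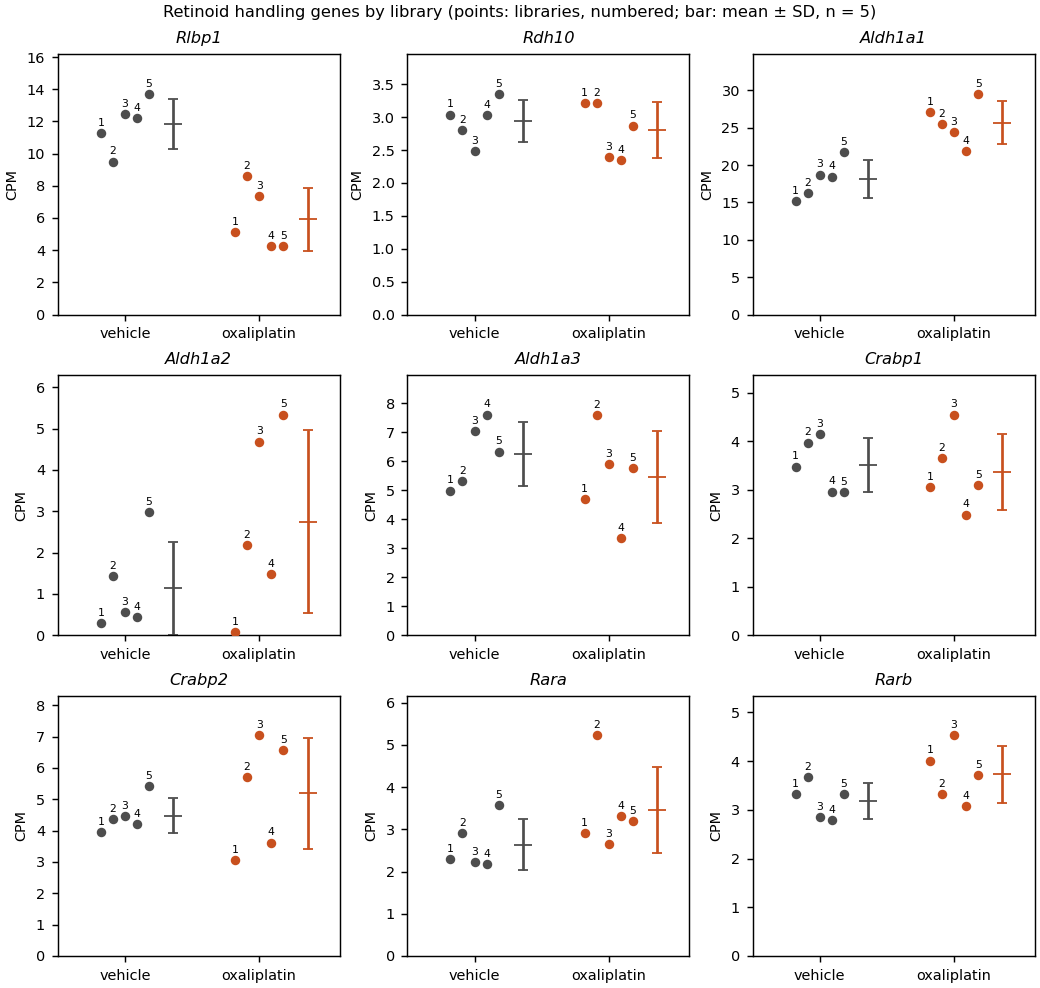
Level in CPM (vertical axes, each from 0) of the 9 genes in each of the 5 vehicle and 5 oxaliplatin libraries, with points numbered by replicate and bars for the mean ± SD. The groups do not overlap for Rlbp1, at most 8.60 CPM after oxaliplatin and at least 9.51 CPM after vehicle, or for Aldh1a1.

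Promoter windows were available for 6 of the 9 genes in the RefSeq table for GRCm38.p6, and Rdh10, Aldh1a3 and Crabp2 were not among them. Each window runs from 250 bases before to 50 bases after a start site, and was searched for the core hexamers of retinoic acid response elements. The 250 bases before the start are shown for Rlbp1 and Aldh1a1, the genes past the threshold, and for Rarb, the gene with a full element. The hexamers are AGGTCA or AGTTCA or GGGTCA or GGTTCA, on either strand, shown in capitals, 5' to 3' on the gene's own strand.

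Rlbp1 (chr7:79387028-79387277, minus strand): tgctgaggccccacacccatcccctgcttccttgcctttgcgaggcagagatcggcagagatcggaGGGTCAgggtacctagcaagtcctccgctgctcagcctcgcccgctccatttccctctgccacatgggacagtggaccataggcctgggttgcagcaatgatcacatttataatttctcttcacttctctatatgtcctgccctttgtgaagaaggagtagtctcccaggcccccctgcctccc
Aldh1a1 (chr19:20601718-20601967, plus strand): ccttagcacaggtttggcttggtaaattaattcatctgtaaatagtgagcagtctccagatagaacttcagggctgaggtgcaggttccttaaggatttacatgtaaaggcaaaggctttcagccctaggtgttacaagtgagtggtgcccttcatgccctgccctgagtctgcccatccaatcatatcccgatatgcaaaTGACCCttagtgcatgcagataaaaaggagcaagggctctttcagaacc
Rarb (chr14:16575477-16575726, minus strand): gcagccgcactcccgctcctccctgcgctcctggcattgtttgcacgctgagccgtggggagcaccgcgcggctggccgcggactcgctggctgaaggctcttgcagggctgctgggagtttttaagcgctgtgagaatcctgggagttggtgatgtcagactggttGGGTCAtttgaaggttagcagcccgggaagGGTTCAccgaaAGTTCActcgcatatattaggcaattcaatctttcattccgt

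At least 1 core hexamer stands in 43.7% of 32851 windows over all genes, so the single hexamers shown for Rlbp1 and Aldh1a1 are common. A second Aldh1a1 start site had none in its 250 bases. Rarb holds an element made of 2 hexamers in tandem spaced by 5 bases, at chr14:16575513-16575529, 53 to 37 bases before its start. Such an element occurs in 32 of the 32851 windows (0.0974%), and tandem repeats spaced by 1 or 2 bases occur in 0.222% and 0.268%. None of the other 5 genes with a window held a repeat of any of the 3 spacings, which says only that these letters are not in that window. Cyp26a1, an enzyme that degrades retinoic acid, has the same kind of element at chr19:37697776-37697792. On the strand that reads them as a direct repeat, the elements of both genes are as follows, with the hexamers in capitals.

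Rarb element: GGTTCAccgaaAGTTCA
Cyp26a1 element: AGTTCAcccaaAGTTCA

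Rarb had 159 to 196 counts per library after vehicle and 190 to 265 after oxaliplatin, while Cyp26a1 had 0 to 12 counts in 9 libraries and 87 in vehicle replicate 5. Rarb carries a further limit: 34.1% of its exon bases overlap Top2b on the opposite strand, and strand is not stated.

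Rlbp1, the cis-retinoid carrier, was lower after oxaliplatin. Its levels were 5.10, 8.60, 7.34, 4.25 and 4.26 CPM in oxaliplatin replicates 1 to 5 and 11.3, 9.51, 12.5, 12.2 and 13.7 CPM in vehicle replicates 1 to 5. All 5 oxaliplatin libraries lay below all 5 vehicle libraries, with replicate 2 of each group closest. The mean fell from 11.8 ± 1.57 CPM (SD, n = 5) to 5.91 ± 1.96 CPM (n = 5), a log2 fold change of -1.0 ± 0.19, or 2.0-fold lower (edgeR adjusted p = 0.0164, rank 108 by p). Libraries varied more after oxaliplatin, with a coefficient of variation of 33.2% against 13.3%, and this difference in spread was not tested. Leaving out vehicle replicate 4 gave an adjusted p of 0.0525, and leaving out oxaliplatin replicate 1 together with vehicle replicate 5 gave 0.0861 (log2 fold change -0.90), within a range of 1.52e-05 to 0.0861 over 18 alternatives. Fewer cells that express a gene and less RNA per cell cannot be told apart in bulk tissue.

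Rdh10 makes retinaldehyde from retinol. It was at 3.21, 3.21, 2.39, 2.34 and 2.87 CPM after oxaliplatin and 3.04, 2.81, 2.49, 3.03 and 3.35 CPM after vehicle, so the groups overlapped, and the difference was -0.07 ± 0.16 on the log2 scale (adjusted p = 0.886).

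The 3 Aldh1a enzymes oxidise retinaldehyde to retinoic acid. Aldh1a1 was at 27.1, 25.5, 24.4, 21.9 and 29.5 CPM after oxaliplatin and 15.2, 16.3, 18.7, 18.5 and 21.8 CPM after vehicle. Every oxaliplatin library was higher, but the lowest, replicate 4, was only just above the highest vehicle library, replicate 5. The mean was 25.7 ± 2.87 against 18.1 ± 2.54 CPM, a log2 fold change of 0.51 ± 0.11, or 1.42-fold (edgeR adjusted p = 0.0224, rank 163 by p). The call was lost without oxaliplatin replicate 1 (adjusted p = 0.0565), oxaliplatin replicate 5 (0.0798), vehicle replicate 1 (0.0582) or vehicle replicate 4 (0.0651), and the adjusted p ran from 0.00105 to 0.0798 over 18 alternatives. Its close paralog Aldh1a7 was at 4.04 ± 0.777 against 5.07 ± 1.02 CPM, and how reads shared by the paralogs were counted is uncertain.

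Aldh1a2 was at 0.07, 2.19, 4.68, 1.47 and 5.34 CPM after oxaliplatin and 0.29, 1.42, 0.55, 0.44 and 2.98 CPM after vehicle. The libraries scattered widely within both groups, with a coefficient of variation of 80.4% after oxaliplatin and 98.5% after vehicle. The difference was 1.28 ± 0.95 on the log2 scale (adjusted p = 0.576). It was 2.34 ± 0.59 with oxaliplatin replicate 1 and vehicle replicate 5 left out (adjusted p = 0.126, range 0.126 to 0.772 over 18 alternatives). Aldh1a3 was at 3.34 to 7.61 CPM after oxaliplatin and 4.99 to 7.62 CPM after vehicle, with a log2 fold change of -0.20 ± 0.19 (adjusted p = 0.665).

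Crabp1 and Crabp2 carry retinoic acid within the cell, Crabp2 to the receptors. Crabp1 was at 2.49 to 4.55 CPM after oxaliplatin and 2.94 to 4.15 CPM after vehicle, with a log2 fold change of -0.06 ± 0.18 (adjusted p = 0.923). Its sign changed when single libraries were left out. Crabp2 was at 3.07, 5.71, 7.04, 3.62 and 6.56 CPM after oxaliplatin and 3.96, 4.36, 4.45, 4.20 and 5.42 CPM after vehicle. After oxaliplatin 3 libraries lay above the vehicle range and 2 below it, with a coefficient of variation of 34.1% against 12.5%. Its log2 fold change was 0.22 ± 0.21 (adjusted p = 0.663).

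Rara and Rarb code for nuclear receptors of retinoic acid. Rara was at 2.90, 5.23, 2.65, 3.31 and 3.19 CPM after oxaliplatin and 2.30, 2.92, 2.22, 2.18 and 3.58 CPM after vehicle, with oxaliplatin replicate 2 set apart. Its log2 fold change was 0.39 ± 0.21 (adjusted p = 0.368). Rarb was at 4.01, 3.32, 4.53, 3.07 and 3.71 CPM after oxaliplatin and 3.33, 3.67, 2.84, 2.79 and 3.32 CPM after vehicle, with overlapping groups and a log2 fold change of 0.22 ± 0.15 (adjusted p = 0.514).

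**Figure D2:**
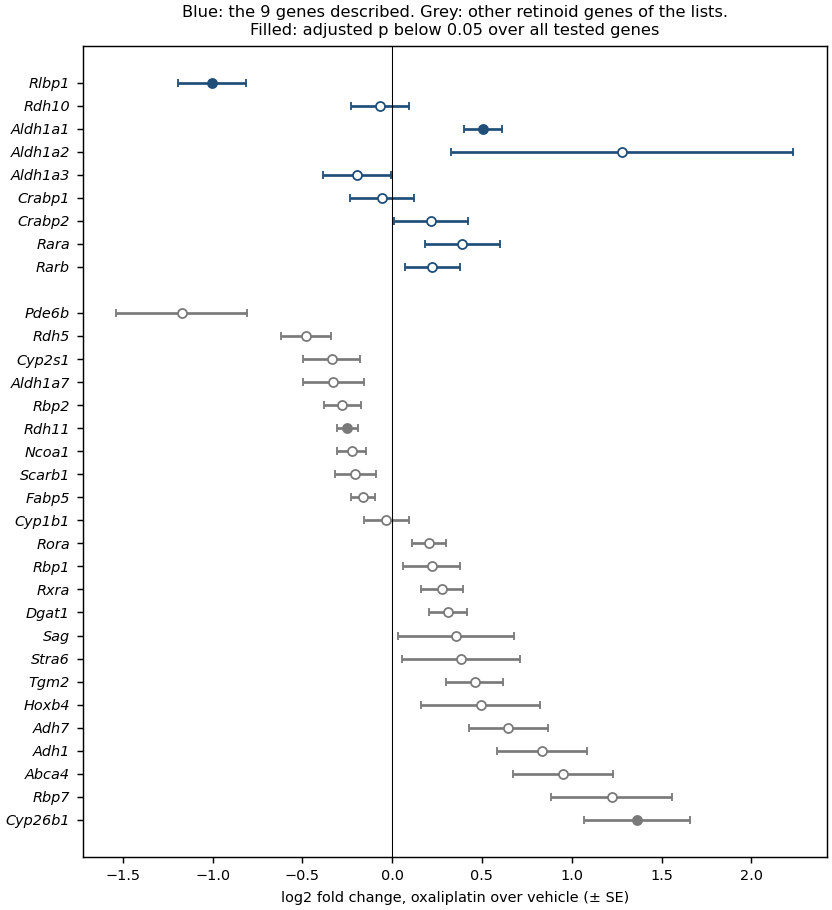
Log2 fold change, oxaliplatin minus vehicle, of the 9 genes with its SE, from the fit over all genes (n = 5 and 5). Rlbp1 lies at -1.0 and Aldh1a1 at 0.51, and the error of Aldh1a2 (0.95) is the widest.

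Levels of different genes were compared only per kilobase of exon (CPM per kb), using GENCODE M21 exon lengths, since the authors' annotation is not given. After vehicle, Crabp1 (4.36 ± 0.69, SD, n = 5), Rlbp1 (4.00 ± 0.53), Aldh1a1 (3.66 ± 0.51) and Crabp2 (3.39 ± 0.42) were highest, and each neighbouring pair had overlapping libraries. Aldh1a3 followed at 1.36 ± 0.24, with no library overlapping Crabp2. Rdh10 (0.707 ± 0.077), Rarb (0.606 ± 0.070), Rara (0.604 ± 0.14) and Aldh1a2 (0.503 ± 0.50) were lowest, again with overlapping neighbours. After oxaliplatin, Aldh1a1 was first at 5.20 ± 0.58, followed by Crabp1 at 4.20 ± 0.97 and Crabp2 at 3.93 ± 1.34, and then Rlbp1 at 2.0 ± 0.66. The libraries of neighbouring genes in this order overlapped here too.

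**Figure D3:**
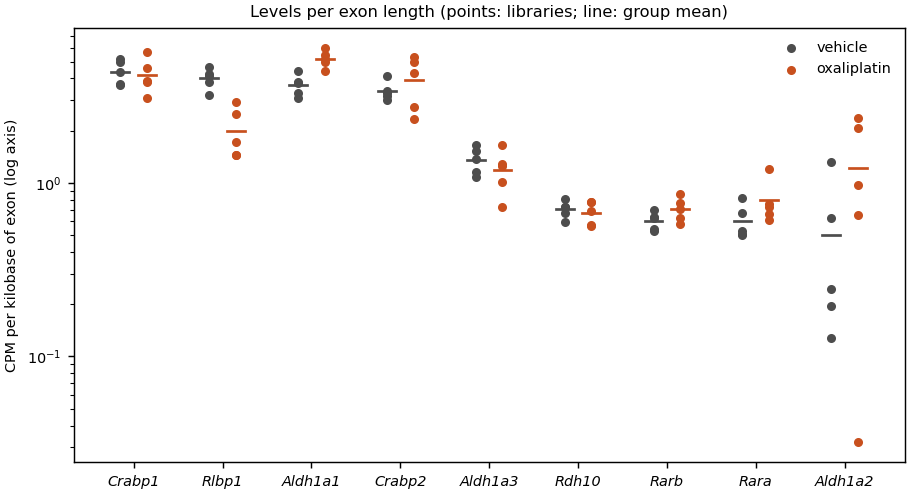
Level in CPM per kilobase of exon (log axis) of the 9 genes in each group, with points for libraries and a line for the group mean (n = 5). After vehicle 4 genes (Crabp1, Rlbp1, Aldh1a1 and Crabp2) lie between 3.39 and 4.36 on average, and Aldh1a2 is lowest at 0.503.

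Within the groups, after removing the group means, the 9 genes gave 36 pairs over 10 libraries. The spread within groups is not the contrast the genes were chosen on. Aldh1a2 and Crabp2 varied together (Pearson's r = 0.87, exact permutation p = 0.000486 and adjusted p = 0.0175, Spearman's rho = 0.83, exact permutation p = 0.00118 and adjusted p = 0.0425, two-sided, 14400 orders). Within oxaliplatin r was 0.88 and within vehicle 0.89, and without oxaliplatin replicate 1 and vehicle replicate 5, the libraries farthest from the median of Aldh1a2, r was 0.70 and the exact permutation adjusted p was 0.4375. So few orders remain without both libraries that a single pair could not reach an adjusted p below 0.05, whatever its r. With 1 library left out, the exact permutation adjusted p was not below 0.05 in 7 of 10 cases (oxaliplatin replicate 1, 2, 4 or 5, or vehicle replicate 1, 4 or 5), where it was 0.05 to 0.0875. The next pair, Rlbp1 and Aldh1a3, did not pass adjustment (r = 0.72, exact permutation p = 0.048, adjusted p = 0.864, r = 0.42 without oxaliplatin replicates 2 and 4). Of the 36 pairs, 29 had r above 0 and 2 had an unadjusted exact permutation p below 0.05. The pairs share genes and libraries, and the share with r above 0 among all gene pairs was not worked out.

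**Figure D4:**
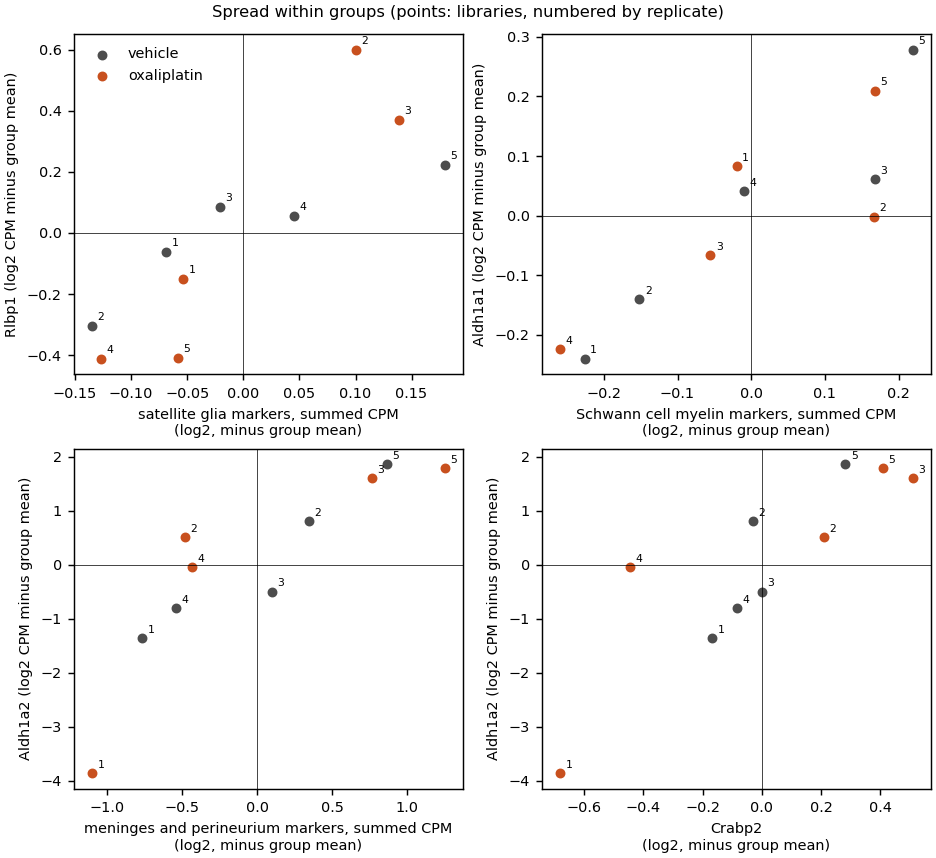
Deviations of log2 CPM from the group mean, with 1 point per library numbered by replicate, for Rlbp1 against satellite glia markers (r = 0.85), Aldh1a1 against Schwann cell myelin markers (r = 0.89), Aldh1a2 against meninges and perineurium markers (r = 0.87) and Aldh1a2 against Crabp2 (r = 0.87). Oxaliplatin replicate 1 is lowest for Aldh1a2 in both of its panels.

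Relations of the 9 genes to summed marker lists of 13 cell types and RNA classes (117 relations, looked at after values were seen) had 0 past adjustment by Pearson's r. By Spearman's rho, Aldh1a2 varied with the list of meninges and perineurium markers (rho = 0.94, exact permutation p = 0.000278, adjusted p = 0.0325, r = 0.87, adjusted p = 0.0934, r = 0.83 without the 2 libraries farthest from the list's median). The summed level of that list was 317 to 1617 CPM after oxaliplatin and 175 to 541 CPM after vehicle. Ptgds alone gave 1339 of the 1617 CPM in oxaliplatin replicate 5 and 902 of 1154 CPM in oxaliplatin replicate 3. It gave 323 of 541 CPM in vehicle replicate 5, but 26.3 of 175 CPM in vehicle replicate 1. The sum therefore leans on 1 gene, and the relation was not tested without it. Rlbp1 varied with satellite glia markers, the glia that wrap neuron cell bodies (rho = 0.85, exact permutation adjusted p = 0.0366, r = 0.85, adjusted p = 0.0934, and 0.89 without the 2 farthest libraries). That list was at 1100 to 1322 CPM after oxaliplatin and 1176 to 1462 CPM after vehicle, with 3 oxaliplatin libraries below every vehicle library. Aldh1a1 and Schwann cell myelin markers had r = 0.89 (exact permutation adjusted p = 0.106, and 0.78 for r without the 2 farthest libraries), with 8619 to 11594 CPM after oxaliplatin and 7812 to 10640 CPM after vehicle. Other lists also had a large r without passing adjustment. Aldh1a2 had r = -0.90 with skeletal muscle markers, and -0.54 without the 2 farthest libraries. Crabp2 had r = -0.80 with that list and 0.82 with meninges and perineurium markers. Rlbp1 had r = 0.74 with sensory neuron and -0.73 with pericyte markers, and Aldh1a1 0.77 with endothelial cell markers. The part of these cell types in the differences was not tested.

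Among genes with a mean of at least 2 CPM, those most like Rlbp1 within groups over the 10 libraries were Pdia6 (r = 0.965), G6pc3 (0.960), Nup35 (0.959), Padi2 (0.942) and B2m (0.937), out of 12266 genes compared. For Aldh1a1 they were Pllp (0.967), Slc39a14 (0.956) and Mbp (0.946), and Pllp and Mbp are myelin genes. Both also belong to the Schwann cell myelin list above, so they are not separate from that relation. Crabp2 was most like Serpind1 (0.947) and Rdh10 most like Cdh15 (0.978). These are descriptions chosen as extremes among many genes.

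The other retinoid genes were counted in lists. Of 75 listed genes that are not among the 9, 55 could be tested. In edgeR's test 1 rose (Cyp26b1) and 1 fell (Rdh11), beside 1.27% and 0.772% of all tested genes, and the median log2 fold change was 0.02 beside 0.01 over all tested genes. DESeq2 called 4 higher and 3 lower, limma voom 1 and 2, and 9 higher and 7 lower had an unadjusted p below 0.05. Of the 18401 genes tested in edgeR, DESeq2 called 512 higher and 405 lower, and limma voom 439 and 365. At an unadjusted p below 0.05, edgeR had 1566 of them higher and 1436 lower. The counts of the lists below stand beside these.

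Cyp26b1, an enzyme that degrades retinoic acid and a target of it, was at 7.57, 2.38, 3.54, 4.98 and 6.36 CPM after oxaliplatin and 1.72, 1.33, 2.93, 1.97 and 1.68 CPM after vehicle. Of the oxaliplatin libraries 4 lay above every vehicle library, and replicate 2 did not. Its log2 fold change was 1.36 ± 0.30, or 2.57-fold (edgeR adjusted p = 0.0316), and it was past the threshold in 3 of 10 fits that left out a library, with an adjusted p of up to 0.0937. The call was lost when oxaliplatin replicate 1, 4 or 5, or vehicle replicate 1, 2, 4 or 5, was the one left out, and over all alternatives the adjusted p ran from 0.000143 to 0.118.

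Rdh11, a retinaldehyde reductase, was at 41.7, 42.7, 42.0, 40.6 and 40.2 CPM after oxaliplatin and 48.8, 48.8, 49.0, 49.0 and 50.6 CPM after vehicle, without overlap. The difference was -0.25 ± 0.06 on the log2 scale, or 1.19-fold lower (edgeR adjusted p = 0.0376). It was past the threshold only in the fit without oxaliplatin replicate 2, 1 of 10 such fits, with an adjusted p of up to 0.111. The call was also lost without a composition factor (0.0683) and without a filter (0.0873), in a range of 0.00057 to 0.114 over all alternatives.

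Retinol supply and storage had 0 of 14 tested genes past the threshold in edgeR, with 2 higher and 1 lower at an unadjusted p below 0.05, 1 higher in DESeq2 and 0 in limma voom. Rbp7, a retinol carrier, was at 3.05 ± 1.19 against 1.31 ± 0.543 CPM (log2 fold change 1.22 ± 0.34, adjusted p = 0.0818). Among the redox enzymes, of which 11 of 18 were tested, Rdh5 was at 15.8 ± 3.5 against 22.1 ± 3.2 CPM (-0.48 ± 0.14, adjusted p = 0.0958) and Adh1 at 6.52 ± 2.56 against 3.66 ± 1.04 CPM (0.83 ± 0.25, adjusted p = 0.111). The receptors and partners had 0 of 14 past the threshold in edgeR, DESeq2 and limma voom, and 2 in each direction at an unadjusted p below 0.05, with Rxra at 0.28 ± 0.12 (adjusted p = 0.256). Of 16 tested retinoic acid targets, Cyp26b1 rose and the others did not pass, with Tgm2 at 0.46 ± 0.16 (adjusted p = 0.154) and Stra6, a retinol transporter, at 0.38 ± 0.33 (adjusted p = 0.63).

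Counts of visual cycle genes are given without exon length, so they do not rank these genes by level. Rdh5, the retinol dehydrogenase that works with Rlbp1 in the eye, had 671 to 1434 counts per library and Lrat, which makes retinyl esters, 33 to 164, while Rpe65 had 5 to 26, Rgr 0 to 8 and Rbp3 0 to 1. Of 13 listed visual cycle genes 7 could be tested, and 0 of these passed in edgeR, with 1 higher and 2 lower at an unadjusted p below 0.05, 1 and 2 in DESeq2 and 0 and 1 in limma voom. The CRAL-TRIO family that Rlbp1 belongs to had 0 of 14 tested genes past the threshold in edgeR, with 1 higher and 3 lower at an unadjusted p below 0.05, 1 and 0 in DESeq2 and 1 and 1 in limma voom. Sec14l5 of that family was at 0.73 ± 0.20 (adjusted p = 0.0662) and Clvs2 at -0.38 ± 0.13 (adjusted p = 0.152). The other aldehyde dehydrogenases had 0 of 15 past the threshold in edgeR, with 3 higher and 2 lower at an unadjusted p below 0.05, 0 and 1 in DESeq2 and 0 and 1 in limma voom, and Aldh7a1 stood at -0.26 ± 0.07 (adjusted p = 0.0633).

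In the lipid-binding protein family, which includes Crabp1 and Crabp2, Fabp7, the lipid carrier of satellite glia, fell among 8 tested genes, beside 0.772% of all tested genes. At an unadjusted p below 0.05 in edgeR, 1 gene of the family was higher and 4 lower, with 1 and 1 in DESeq2 and 0 and 1 in limma voom. Fabp7 was at 141, 178, 136, 103 and 91.3 CPM after oxaliplatin and 258, 210, 246, 253 and 312 CPM after vehicle, without overlap. Its difference was -0.98 ± 0.18 on the log2 scale, or 1.97-fold lower (edgeR adjusted p = 0.0298). It was past the threshold in 3 of 10 fits that left out a library (adjusted p up to 0.0779), and the call was lost when oxaliplatin replicate 1, 3 or 4, or vehicle replicate 1, 3, 4 or 5, was the one left out. With all libraries but no filter on low counts the adjusted p was 0.0539, and over all alternatives it ran from 5.24e-08 to 0.141. Fabp7 is also a marker in the satellite glia list, in which 1 gene was higher (Glul) and Fabp7 lower.

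**Figure D5:**
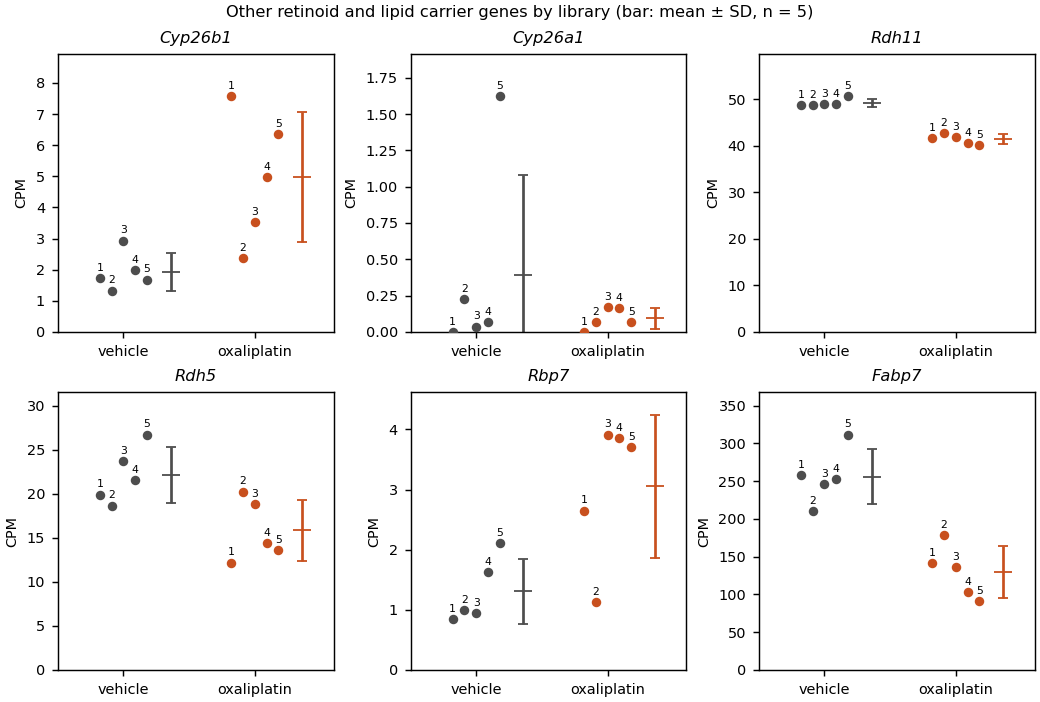
Level in CPM of Cyp26b1, Cyp26a1, Rdh11, Rdh5, Rbp7 and Fabp7 in each library, with points numbered by replicate and bars for the mean ± SD (n = 5 per group). For Cyp26b1, oxaliplatin replicate 2 at 2.38 CPM lies within the vehicle range, and for Rdh11 the groups do not overlap.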

How the data were processed

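Total RNA of dorsal root ganglia was measured in 10 libraries. The authors deposited raw read counts per Ensembl gene. STAR 2.5.1a, Partek and DESeq2 are listed, without their roles, per the submitters' processing notes. The genome build, annotation, counting step and strand were not given in the sources used here. In all, the table has 40757 rows for 40481 IDs, and 276 repeated rows were dropped. For 26 genes whose symbol had turned into a date, the ID gave the symbol. Libraries of a group differed by more than sampling noise (chi-square divided by its degrees of freedom was 12.8 to 53.6), and each counted as 1 sample.

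Differences were tested with edgeR 4.0.16 in R 4.3.3 (filterByExpr, TMM, robust quasi-likelihood, no covariates, Benjamini-Hochberg over all tested genes, threshold 0.05). The same test was run on counts simulated at the fitted spread, and its outcome is not given here. TMM-scaled library sizes gave the CPM, and a prior count of 2 was added for log2 CPM. Pairs of genes were tested by permuting libraries within groups. Alternatives were DESeq2 1.42.0 and its size factors, limma 3.58.1 voom, no composition factor, no filter or a stricter one (1 CPM in 5 libraries), a prior count of 0.5, the replicate number as a block and leaving out each library. The fit without oxaliplatin replicate 1 and vehicle replicate 5, and the relations to marker lists, were added after seeing the data. The 9 genes and the gene lists were chosen with earlier results of these data known. Named genes are the 9, up to 4 further genes of smallest p per list beside those past the threshold, and the genes most like each of the 9, of which examples are given.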

Additional observations from a re-analysis of the deposited data

Results flagged for a closer look

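In 58 groups of 5 values checked, 7 had a library far from the others, where chance flags about 1 in 20. Rara was at 5.23 CPM in oxaliplatin replicate 2 and 2.65 to 3.31 CPM in the other 4. Cyp26a1 was at 1.62 CPM in vehicle replicate 5, with the others at 0 to 0.225 CPM. Rdh11 was at 50.6 CPM in vehicle replicate 5, with the others at 48.8 to 49.0 CPM. Lpl, a lipase of fat cells, was at 68.0 CPM in oxaliplatin replicate 1, with the others at 9.04 to 11.5 CPM. In the same library the adipocyte list summed to 1158 CPM (other oxaliplatin libraries 27.8 to 78.1). The skeletal muscle list summed to 723 CPM there (other oxaliplatin libraries 9.61 to 24.2, vehicle 96.8 to 479). The macrophage list summed to 73.4 CPM in oxaliplatin replicate 5, with the others at 51.7 to 57.8 CPM.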

How the results depend on the processing

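Rlbp1 stayed below 0 and Aldh1a1 above 0 under all 18 alternatives. Over all genes, 234 were higher and 142 lower in edgeR, against 514 and 408 in DESeq2, 439 and 365 in limma voom, 382 and 278 with the replicate block, 142 and 76 without oxaliplatin replicate 1 and vehicle replicate 5, and 79 to 343 and 34 to 251 with 1 library left out. Of the 9 genes, 0 to 1 were higher and 0 to 1 lower with 1 library left out, and 0 were lower without both libraries. The Rlbp1 log2 fold change was -0.90 without both libraries and -1.18 to -0.90 with 1 left out, and that of Crabp1 was -0.189 to 0.0369. For the other retinoid genes, 1 was higher and 1 lower, against 4 and 3 in DESeq2, 1 and 2 in limma voom, 2 higher with the replicate block, 0 and 0 without both libraries, 0 lower without a composition factor or a filter, and 0 to 3 and 0 to 2 with 1 library left out. Of the gene pairs, 1 passed with all libraries, 0 to 1 with 1 left out and 0 without both libraries (smallest exact permutation adjusted p = 0.4375). Without both, too few orders remained for a single pair to pass, so that 0 says nothing about these libraries. The cause of the other changes between settings was not tested. The labels do not say that same-numbered libraries are paired, and the main fit did not pair them. Same-numbered libraries of the 2 groups correlated at -0.038 to 0.212 and differently numbered ones at -0.147 to 0.081. The highest values, 0.212, 0.145 and 0.092, were all of same-numbered libraries, and 6 of 10 libraries correlated best with their own number. These 6 are the libraries of replicate numbers 1, 3 and 5, with each pair counted from both sides. Numbers 2 and 4 correlated at -0.038 and -0.018. Whether same-numbered libraries share a batch was not tested. With the replicate block the Rlbp1 log2 fold change was -1.05 (edgeR adjusted p = 0.0308). Fabp7 had an adjusted p of 0.141 under that block.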
